A study of Homo sapiens with 16 samples.

Results

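Collagens, matrix glycoproteins, matricellular proteins, proteoglycans and the enzymes that modify and crosslink them were examined as a set of 47 genes, taken from a written list of gene names, out of 58735 genes in the deposited table. RNA was sequenced from U2OS, an osteosarcoma cell line, in 8 groups of 2 libraries, 16 in all. Cells received an siRNA against SETD2 (siSETD2), the enzyme that trimethylates lysine 36 of histone H3, or a non-targeting siRNA (siNT), and 48 h after transfection were given 2 mM hydroxyurea (HU) together with 2 µM VE-822, HU alone, VE-822 alone, or were left as untreated controls. The drugs were present for 4 h. HU starves replication forks of deoxynucleotides, and ATR, the kinase that VE-822 blocks, is the main replication checkpoint kinase. All groups were the same line in the same medium with 10% serum, and knockdown by transfected siRNA is partial and transient. The 2 libraries of a group carry the numbers R1 and R2, and nothing in the labels says that they came from separate cultures, so p-values speak only for the spread among these libraries, possibly technical.

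Collagens are trimers of alpha chains that are hydroxylated on proline and lysine in the endoplasmic reticulum, folded, secreted and then crosslinked outside the cell by lysyl oxidases. Fibrillar collagens form the fibrils of bone, skin and tendon, collagen IV with laminins and nidogens forms basement membranes, and collagen VI forms beaded filaments around cells. Fibronectin and fibrillins build separate fibres, and matricellular proteins such as SPARC and thrombospondins act on cells more than they bear load. Type I collagen, a trimer of COL1A1 and COL1A2 chains, is the main protein of bone matrix and is made by osteoblasts. In bulk RNA, fewer cells that make a transcript and less of it per cell cannot be told apart.

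The SETD2 transcript lay between 2.01 and 4.62 FPKM in the 8 siSETD2 libraries and between 7.34 and 9.25 FPKM in the 8 siNT libraries, a log2 fold change of -1.09 (SE 0.125, limma adjusted p = 0.0169). FPKM are fragments scaled to exon length and to a factor per library. That factor was 0.940 (siNT R2 with HU) to 1.07 (siSETD2 R1 with HU) times the library's fragment total. Libraries held 22310806 to 31101932 fragments, of which the 47 matrix genes took 0.558% to 1.15%. The mesenchymal markers VIM (118 FPKM), CDH2 (47.4 FPKM) and CD44 (43.6 FPKM) were well expressed as library means, but TWIST1 (0.00968 FPKM), NT5E (0.133 FPKM) and PRRX1 (0.594 FPKM) were near 0. Of the epithelial markers CLDN4 (5.68 FPKM) and EPCAM (1.86 FPKM) were present and CDH1 (0.0769 FPKM) was near 0. All markers of mature osteoblasts, endothelium and blood averaged at most 0.360 FPKM (BGLAP). R1 and R2 libraries differed broadly in 6 groups (all but VE-822 alone with either siRNA), and the 4 VE-822-alone libraries stood apart from the other 12 and did not carry that difference, so the effect of VE-822 alone and anything else particular to those 4 libraries cannot be told apart.

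Of the 47 genes, 38 averaged at least 1 FPKM over the 16 libraries and were tested. Their median level was 14.9 FPKM against 5.51 FPKM for all 13088 genes tested, and their median exon length was 8454 bases against 4314.5. SPARC (chr5:151661096-151687165 on the minus strand of hg38), a matricellular calcium-binding protein of bone, had the highest mean at 165 FPKM. The collagen VI chains COL6A2 (chr21:46098097-46132849) and COL6A1 (chr21:45981737-46005050), neighbours on the plus strand of chromosome 21, followed at 131 and 104 FPKM, and the partner chain COL6A3 averaged 8.59 FPKM. Tenascin-C (TNC), an anti-adhesive glycoprotein, averaged 90.3 FPKM. The laminin chain LAMC1, the lysyl hydroxylase PLOD1 and the basement membrane linker NID1 averaged 67.2, 65.0 and 58.5 FPKM. The secreted glycoprotein FSTL1, the lysyl hydroxylase PLOD2 and the prolyl hydroxylase P4HA1 completed the 10 highest at 55.6, 40.8 and 37.6 FPKM. TNC lay between 59.7 and 119 FPKM over the 16 libraries, LAMC1 between 44.9 and 87.1, PLOD1 between 44.3 and 93.3, NID1 between 37.4 and 76.7 and PLOD2 between 24.6 and 57.1 FPKM. Over all libraries the ranges of the 10 overlapped between neighbours in the order, as the plot of levels by role shows.

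**Figure D1:**
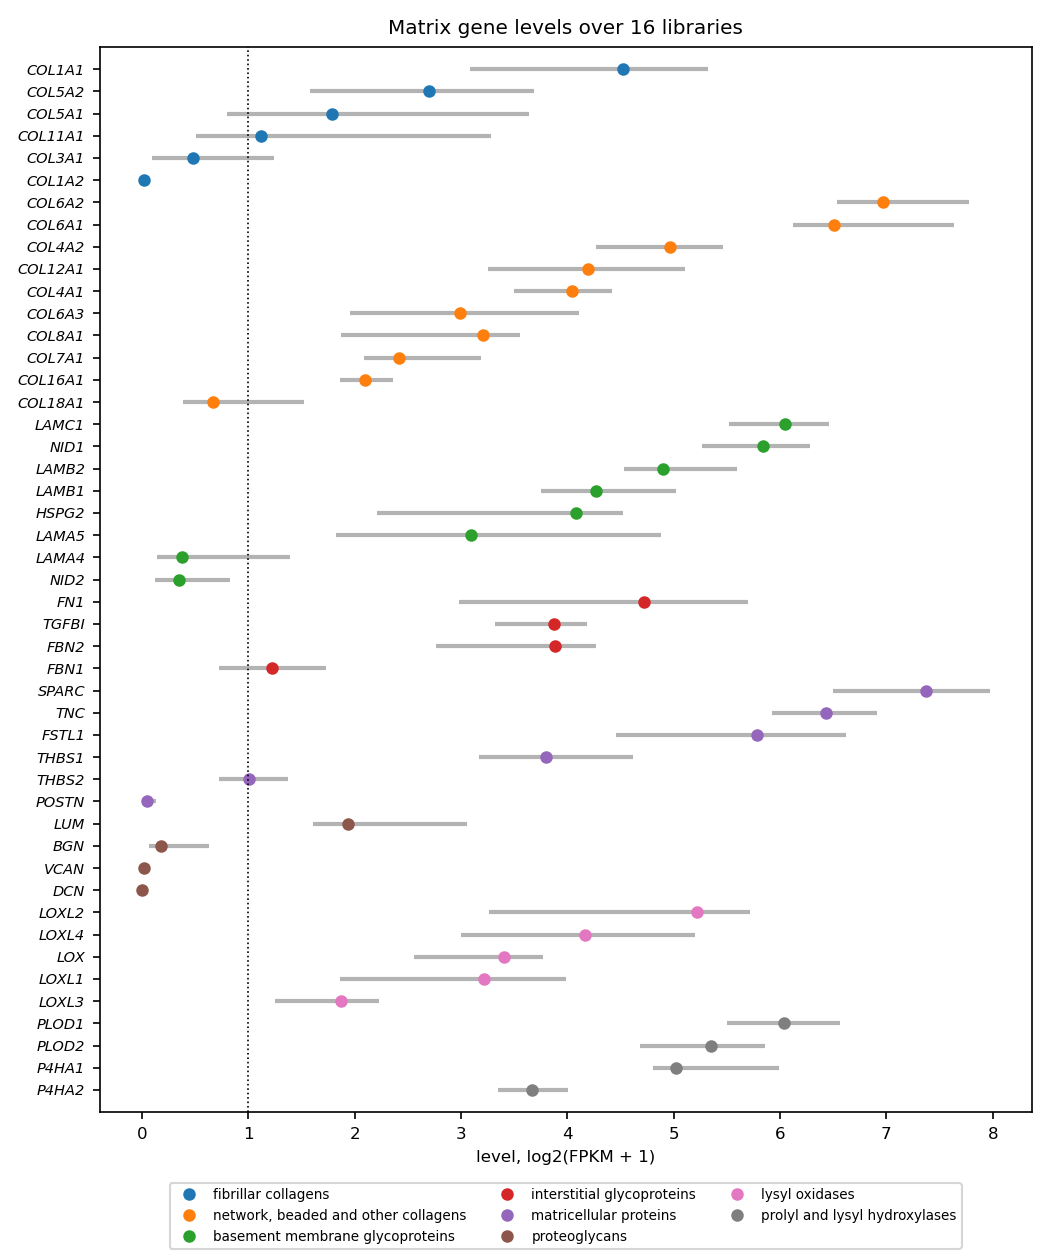
Level of each of the 47 matrix genes on a log2(FPKM + 1) axis, grouped by role; points are medians and bars the lowest to highest of 16 libraries, and the dotted line marks 1 FPKM. SPARC and the collagen VI chains COL6A2 and COL6A1 lie highest, and COL1A2, DCN, VCAN and POSTN lie at or near 0 in all 16 libraries.

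The chains of type I collagen were unequal. COL1A1 (chr17:50183289-50201632, minus strand) held 1855 to 9780 fragments per library, whereas COL1A2 (chr7:94394561-94431232, plus strand) held 0 to 12 fragments and never exceeded 0.0414 FPKM. The other genes below the 1 FPKM mean reached at most 1.88 FPKM (COL18A1, the source of endostatin), 1.62 FPKM (LAMA4, a vascular laminin chain), 1.36 FPKM (COL3A1, fibrillar), 0.777 FPKM (NID2, a nidogen), 0.550 FPKM (BGN, the proteoglycan biglycan), 0.0968 FPKM (POSTN, periostin), 0.0327 FPKM (VCAN, versican) and 0.00647 FPKM (DCN, decorin, with 5 fragments in all 16 libraries together). Of these, COL18A1, LAMA4 and COL3A1 averaged 1.61, 1.29 and 1.09 FPKM in the 4 VE-822-alone libraries and 0.505, 0.240 and 0.357 FPKM in the other 12. Among the proteoglycans listed other than perlecan only lumican (LUM) passed, at a mean of 3.56 FPKM. Whether the counting used strand is not given in the sources used here. LAMA5 overlaps ADRM1 (55.8 FPKM), P4HA2 overlaps PDLIM4 (27.8 FPKM), LAMB1 overlaps DLD (10.6 FPKM), and LOX overlaps SRFBP1 (5.55 FPKM), LOXL3 overlaps HTRA2 (7.87 FPKM) and COL4A2 overlaps COL4A1, all on the other strand, so their levels are uncertain to that extent, as is that of LOXL2, which overlaps ENTPD4 (18.8 FPKM) on its own strand.

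Much of the matrix set was higher with VE-822 alone. Averaged over both siRNAs, 30 of 38 genes were higher with VE-822 than untreated, with a median log2 fold change of 0.51 against -0.03 for all genes tested. limma called 18 of 38 risen and 0 fallen at an adjusted p of 0.05, where 24.7% of all genes tested were called and 11.4% were called risen. The called genes were the fibrillar chains COL5A1 and COL11A1, collagens VI and VII, laminins and NID1, FN1, FBN1, LUM, LOXL4 and the hydroxylases PLOD1, P4HA1 and P4HA2. The second collagen V chain, COL5A2, was not called, nor was any of the 5 matricellular genes tested. Fold changes are of FPKM + 1, which understates those of genes near or below 1 FPKM. Of the 38, 19 had all 4 VE-822-alone libraries above all 12 others, where 8.12% of all genes tested did. COL11A1 is among the 19 but averaged at least 1 FPKM through the VE-822-alone libraries only, so its place there is no support. With 1 library left out, the lowest number called was 11 (siNT R2 with VE-822 left out) and the highest 23 (untreated siSETD2 R2 left out).

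Fibrillar collagens are given first. COL5A1 (chr9:134641774-134844843), which starts and limits the width of collagen I fibrils, had 8.87 and 10.1 FPKM in siSETD2 cells with VE-822 and 8.42 and 11.5 FPKM in siNT cells with VE-822, against 0.741 and 2.41 FPKM in untreated siSETD2 cells and 1.63 and 2.98 FPKM in untreated siNT cells (R1 and R2). It averaged 9.72 ± 1.37 FPKM with VE-822 and 1.94 ± 0.972 FPKM untreated (SD, n = 4 libraries each), and no library of one set reached the other. This was a rise of 1.92 (SE 0.308, adjusted p = 0.00175). COL11A1, a related chain that copolymerises with collagen V, had 5.66 and 5.68 FPKM in siSETD2 cells with VE-822 and 7.17 and 8.73 FPKM in siNT cells with VE-822, against 0.486 and 1.28 FPKM in untreated siSETD2 cells and 0.787 and 2.36 FPKM in untreated siNT cells. Its level was at or below 2.36 FPKM in the other 12 libraries, and it passed the filter on low values through the VE-822-alone libraries only. Its fold change of 1.86 on the log2 scale (SE 0.248) is therefore a description, and its place among the 18 called is no support. COL5A2, the second chain of collagen V, had 8.64 and 8.50 FPKM in siSETD2 cells with VE-822 and 11.2 and 11.9 FPKM in siNT cells with VE-822, against 1.98 and 5.78 FPKM in untreated siSETD2 cells and 4.38 and 8.59 FPKM in untreated siNT cells. It differed by 0.95 (adjusted p = 0.051) and passed with the replicate term described next (adjusted p = 1.35e-05). COL1A1 had 20.3 and 22.6 FPKM in siSETD2 cells with VE-822 and 21.3 and 23.3 FPKM in siNT cells with VE-822, against 7.47 and 32.3 FPKM in untreated siSETD2 cells and 13.2 and 32.2 FPKM in untreated siNT cells. The 4 VE-822-alone values lay close together, above the untreated R1 values and below the untreated R2 values, and the log2 fold change of 0.26 (adjusted p = 0.782) did not pass.

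A second fit gave R1 and R2 libraries their own levels in those 6 groups (the replicate block), since their differences between R1 and R2 went together. It leaves fold changes as they are and changes their errors. The replicate term was 0 in the VE-822-alone libraries, which were thus set against the midpoint of untreated R1 and R2. The spread between R1 and R2 was taken out of the error, so calls with the block rest on that setting. With this block limma called 27 of 38 matrix genes risen with VE-822 and 0 fallen, where 44.9% of all genes tested were called and 20.7% were called risen. The 9 further genes were COL5A2, COL8A1, HSPG2, FBN2, LOX, LOXL1, LOXL2, LOXL3 and PLOD2. Of these only LOXL2 had all 4 VE-822-alone libraries above the 4 untreated libraries. For the others an untreated R2 value reached the VE-822-alone values, so a rise over untreated R2 was not shown. The call of HSPG2 was lost without any 1 of 4 libraries and that of FBN2 without any 1 of 10. The median log2 fold change of the 38 was 0.75 between R1 libraries and 0.29 between R2 libraries. All 4 libraries of VE-822 alone entered both fits, and no block can separate them from the drug.

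**Figure D2:**
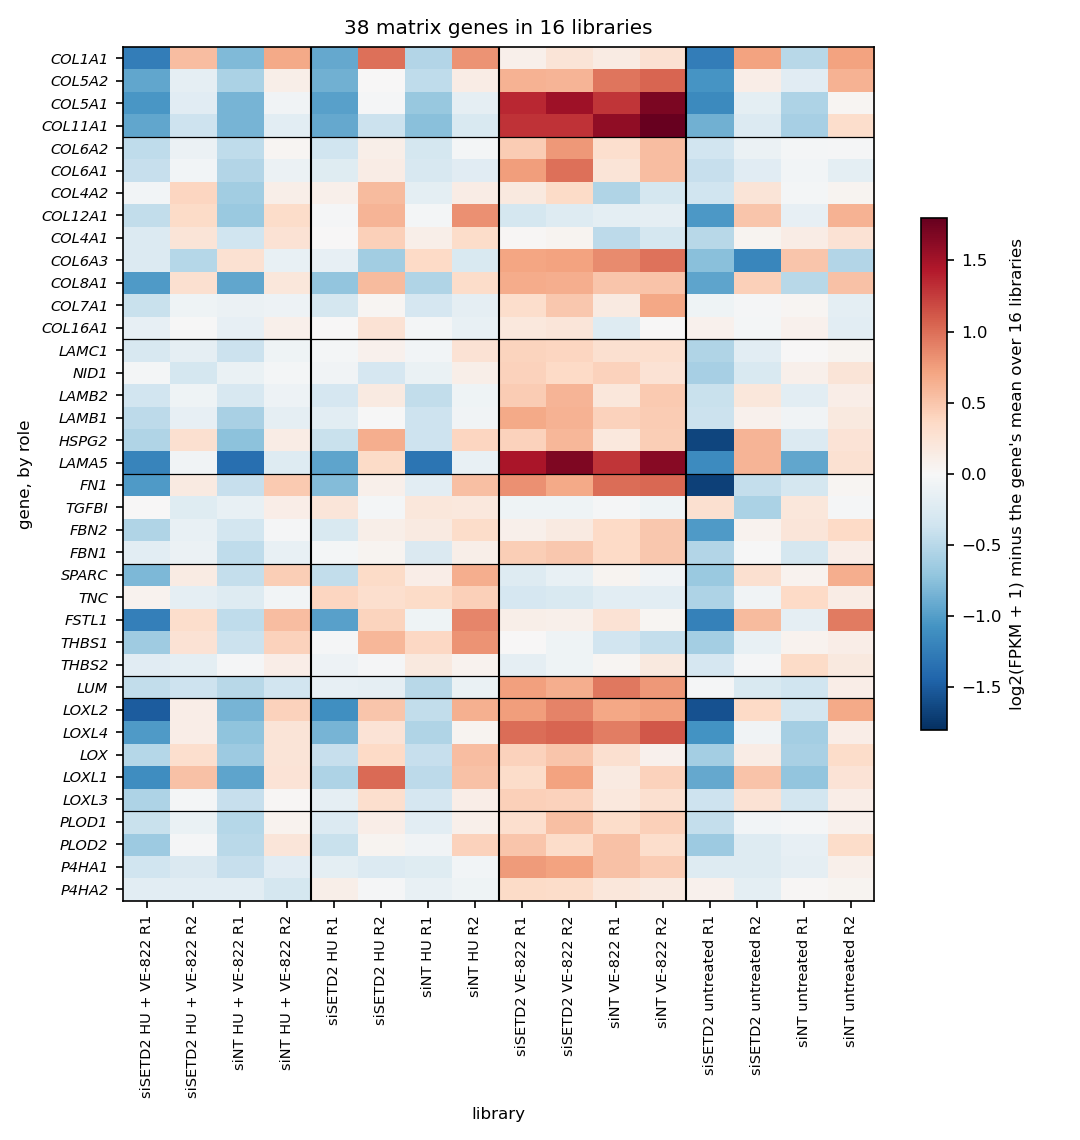
log2(FPKM + 1) of 38 matrix genes (rows, by role) in 16 libraries (columns), minus each gene's mean; red is above and blue below that mean. The 4 VE-822-alone columns are red for the fibrillar collagens COL5A1 and COL11A1, laminins and lysyl oxidases, and the R2 columns of other groups are redder than R1 for COL1A1 and LOXL2.

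Among collagens that form networks and beaded filaments, the 3 collagen VI chains examined (COL6A1, COL6A2 and COL6A3) rose. COL6A3 (chr2:237324003-237414375) had 13.3 and 13.4 FPKM in siSETD2 cells with VE-822 and 14.8 and 16.3 FPKM in siNT cells with VE-822, against 4.21 and 2.87 FPKM in untreated siSETD2 cells and 11.4 and 5.05 FPKM in untreated siNT cells. It averaged 14.5 ± 1.41 FPKM with VE-822 and 5.88 ± 3.79 FPKM untreated (SD, n = 4 libraries each), a log2 fold change of 1.31 (SE 0.229, adjusted p = 0.00283). COL6A1 had 168 and 198 FPKM in siSETD2 cells with VE-822 and 117 and 146 FPKM in siNT cells with VE-822, against 74.0 and 85.7 FPKM in untreated siSETD2 cells and 95.6 and 87.3 FPKM in untreated siNT cells. Both sets were apart, by 0.85 on the log2 scale (SE 0.142, adjusted p = 0.00224). COL6A2 had 174 and 219 FPKM in siSETD2 cells with VE-822 and 156 and 187 FPKM in siNT cells with VE-822, against 100.2 and 117 FPKM in untreated siSETD2 cells and 124 and 125 FPKM in untreated siNT cells. It rose by 0.65 (adjusted p = 0.0154) and COL7A1, the anchoring fibril collagen, by 0.47 (adjusted p = 0.0255). The call of COL7A1 was lost without any 1 of 5 libraries, and that of COL6A2 without either R2 library with VE-822. The collagen IV chains COL4A1 and COL4A2 had log2 fold changes of -0.17 and -0.05, and the fibril-associated COL12A1 of -0.20, none of which passed in either fit. Both collagen IV values average opposite directions. In siNT cells COL4A1 averaged 11.2 FPKM with VE-822 and 17.3 FPKM untreated, and COL4A2 21.2 and 28.8 FPKM. In siSETD2 cells COL4A1 averaged 15.3 and 12.9 FPKM, and COL4A2 34.6 and 28.0 FPKM. This difference between siRNAs was not called.

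Promoter windows of 3 genes are shown because these genes were high together in the VE-822-alone libraries while their start regions carry different core elements. The windows are the 250 bases before the RefSeq start on GRCh38.p14, 5′ to 3′ on the gene's strand, and capitals mark GC boxes (GGGCGG or CCGCCC on the other strand, overlaps counted), CCAAT boxes (CCAAT or ATTGG) and TATA boxes (TATAAA or TTTATA). COL11A1 (chr1:103108523-103108772, minus strand) holds 3 GC boxes and 1 CCAAT box. P4HA1 (chr10:73096867-73097116, minus strand) holds 1 TATA box and no GC box, and COL6A3 (chr2:237414165-237414414, minus strand) holds none of these.
COL11A1: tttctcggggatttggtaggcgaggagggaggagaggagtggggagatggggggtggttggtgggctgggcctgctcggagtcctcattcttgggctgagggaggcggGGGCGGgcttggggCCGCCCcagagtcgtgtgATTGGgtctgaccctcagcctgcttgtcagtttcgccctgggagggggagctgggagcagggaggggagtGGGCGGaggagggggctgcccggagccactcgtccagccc
P4HA1: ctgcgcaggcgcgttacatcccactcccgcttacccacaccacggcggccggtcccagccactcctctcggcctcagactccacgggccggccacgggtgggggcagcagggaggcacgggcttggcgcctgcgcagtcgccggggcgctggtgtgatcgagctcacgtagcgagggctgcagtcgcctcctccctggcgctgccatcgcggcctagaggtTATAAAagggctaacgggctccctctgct
COL6A3: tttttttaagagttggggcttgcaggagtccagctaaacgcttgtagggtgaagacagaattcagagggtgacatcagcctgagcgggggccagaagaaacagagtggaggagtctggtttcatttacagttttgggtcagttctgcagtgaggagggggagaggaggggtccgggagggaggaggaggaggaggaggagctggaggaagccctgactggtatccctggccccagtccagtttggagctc
The promoter table holds 43 windows of 38 of the 47 matrix genes. Of these, 72.1% had a GC box, against 42.6% of 35116 windows of all genes. CCAAT boxes were in 25.6% against 32.0%, and TATA boxes in 14.0% against 10.7%. The windows of all genes were not limited to the genes tested here, and some genes have more than 1 window. These shares therefore do not compare matrix genes with other expressed genes. A match of letters describes the window and is no evidence of a bound factor.

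Basement membrane genes rose as well, with 5 of 6 tested called (11.4% of all genes were called risen) and all 6 called with the block (20.7%). LAMA5 (chr20:62307955-62367312), the alpha chain of adult epithelial and vascular laminins, had 24.3 and 28.4 FPKM in siSETD2 cells with VE-822 and 21.4 and 27.5 FPKM in siNT cells with VE-822, against 3.18 and 12.9 FPKM in untreated siSETD2 cells and 3.76 and 10.0 FPKM in untreated siNT cells. It averaged 25.4 ± 3.20 FPKM with VE-822 and 7.46 ± 4.76 FPKM untreated (SD, n = 4 libraries each), and the 4 VE-822 libraries lay above the other 12. LAMA5 rose by 1.82 (SE 0.486, adjusted p = 0.0212). The call was lost without any 1 of 5 libraries (untreated siNT R1, untreated siSETD2 R1, siNT R2 and both siSETD2 libraries with VE-822). The beta and gamma chains LAMB1, LAMB2 and LAMC1 rose by 0.59, 0.51 and 0.51 (adjusted p = 0.0119, 0.0467 and 0.00856), and NID1 by 0.50 (adjusted p = 0.00942). LAMB2 lost its call without any 1 of 13 libraries and LAMB1 without untreated siNT R1. Perlecan (HSPG2) was called only with the block, at 0.67 (adjusted p = 0.0304).

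Fibronectin (FN1, chr2:215360440-215436172, minus strand), the adhesive glycoprotein that integrins assemble into fibrils, had 44.1 and 39.8 FPKM in siSETD2 cells with VE-822 and 49.8 and 51.1 FPKM in siNT cells with VE-822, against 6.91 and 17.9 FPKM in untreated siSETD2 cells and 19.3 and 24.9 FPKM in untreated siNT cells. The VE-822-alone libraries lay above all others, and siSETD2 lay below siNT in each set. It averaged 46.2 ± 5.24 FPKM with VE-822 and 17.3 ± 7.53 FPKM untreated (SD, n = 4 libraries each), a log2 fold change of 1.49 (SE 0.350, adjusted p = 0.0121). Its promoter window (chr2:215436069-215436318) is shown because FN1 is also among the genes called for siSETD2 with the replicate block in 6 groups, though not without it. It carries 6 GC boxes, counted with overlaps, and 1 CCAAT box.
FN1: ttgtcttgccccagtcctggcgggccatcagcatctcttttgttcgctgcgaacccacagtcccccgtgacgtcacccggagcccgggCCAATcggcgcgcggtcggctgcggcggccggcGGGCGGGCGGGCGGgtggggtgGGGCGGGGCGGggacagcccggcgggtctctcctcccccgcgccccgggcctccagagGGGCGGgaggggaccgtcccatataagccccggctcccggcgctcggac
Fibrillin-1 (FBN1), the backbone of microfibrils, rose by 0.62 (adjusted p = 0.0112), and lumican (LUM), which regulates fibril spacing, by 0.92 (adjusted p = 0.000593). LUM had 6.16 and 5.78 FPKM in siSETD2 cells with VE-822 and 7.29 and 6.38 FPKM in siNT cells with VE-822, against 3.21 and 2.56 FPKM in untreated siSETD2 cells and 2.34 and 3.68 FPKM in untreated siNT cells, with no overlap of the sets. The matricellular genes SPARC, TNC, THBS1 and THBS2 had fold changes of -0.17, -0.21, -0.07 and -0.05, with FSTL1 at 0.09, and none passed in either fit. For THBS1 the directions were opposite, with means of 9.76 FPKM with VE-822 and 13.9 FPKM untreated in siNT cells. In siSETD2 cells its means were 12.7 and 9.98 FPKM. SPARC had 134 and 144 FPKM in siSETD2 cells with VE-822 and 164 and 152 FPKM in siNT cells with VE-822, against 98.8 and 192 FPKM in untreated siSETD2 cells and 165 and 249 FPKM in untreated siNT cells. These 2 sets overlapped.

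Of 9 tested enzymes that hydroxylate or crosslink collagen, 4 were called risen (11.4% of all genes were), and all 9 with the block (20.7%). P4HA1 (chr10:73007217-73096974), the catalytic subunit of collagen prolyl 4-hydroxylase, had 62.4 and 60.2 FPKM in siSETD2 cells with VE-822 and 52.8 and 50.2 FPKM in siNT cells with VE-822, against 30.6 and 30.6 FPKM in untreated siSETD2 cells and 32.3 and 38.8 FPKM in untreated siNT cells. It averaged 56.4 ± 5.83 FPKM with VE-822 and 33.1 ± 3.92 FPKM untreated (SD, n = 4 libraries each), a log2 fold change of 0.75 (SE 0.0886, adjusted p = 0.000281). P4HA2 and PLOD1 rose by 0.26 and 0.51 (adjusted p = 0.0318 and 0.0333), calls that were lost without any 1 of 6 and 7 libraries. The lysyl oxidase LOXL4 had 33.2 and 34.2 FPKM in siSETD2 cells with VE-822 and 31.3 and 35.7 FPKM in siNT cells with VE-822, against 7.02 and 15.3 FPKM in untreated siSETD2 cells and 10.2 and 17.4 FPKM in untreated siNT cells. LOXL4 rose by 1.43 (SE 0.354, adjusted p = 0.0152), a call lost without untreated siNT R1, untreated siSETD2 R1 or siNT R2 with VE-822. LOXL2, which also acts in the nucleus, had 46.9 and 51.7 FPKM in siSETD2 cells with VE-822 and 45.3 and 46.3 FPKM in siNT cells with VE-822, against 8.57 and 35.6 FPKM in untreated siSETD2 cells and 21.7 and 44.9 FPKM in untreated siNT cells. All 4 VE-822-alone values lay above the other 12, but the untreated spread was wide and its fold change of 0.98 was called with the block alone (adjusted p = 0.000228). LOX, the founding member, had 11.3 and 12.2 FPKM in siSETD2 cells with VE-822 and 10.3 and 8.75 FPKM in siNT cells with VE-822, against 5.08 and 9.20 FPKM in untreated siSETD2 cells and 5.20 and 10.6 FPKM in untreated siNT cells. The untreated R2 values of LOX reached the VE-822 values, and its fold change of 0.50 was called with the block alone (adjusted p = 0.000216).

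Other lists of the pathway are read against all genes tested, of which 11.4% were called risen and 13.4% fallen with VE-822. Of 24 tested genes for collagen folding, modification and secretion, 3 rose and 0 fell, a share of risen genes near that of all genes, the largest being the procollagen N-proteinase ADAMTS2 (2.03 on the log2 scale). Of 25 TGF-beta ligands, receptors, SMADs and targets, 7 rose and 3 fell, led by the receptor TGFBR2 (1.69) and the latent TGF-beta binding protein LTBP1 (1.36). Of 20 integrins and other receptors, 7 rose and 3 fell, with ITGB8 (1.74), SDC2 (1.27) and SDC3 (1.22) largest. Of 29 other matrix genes, 5 rose and 4 fell, with the protease inhibitor TIMP3 at 1.33, the matricellular CYR61 at -1.18 and the glypican GPC4 at 1.03. Summed levels of the mesenchymal markers were 188 to 224 FPKM in the 4 VE-822-alone libraries and 235 to 290 FPKM in the other 12, and those of the 5 epithelial markers 8.10 to 9.95 FPKM in the 4 and 4.21 to 11.7 FPKM in the 12. Their part in the result was not tested.

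**Figure D3:**
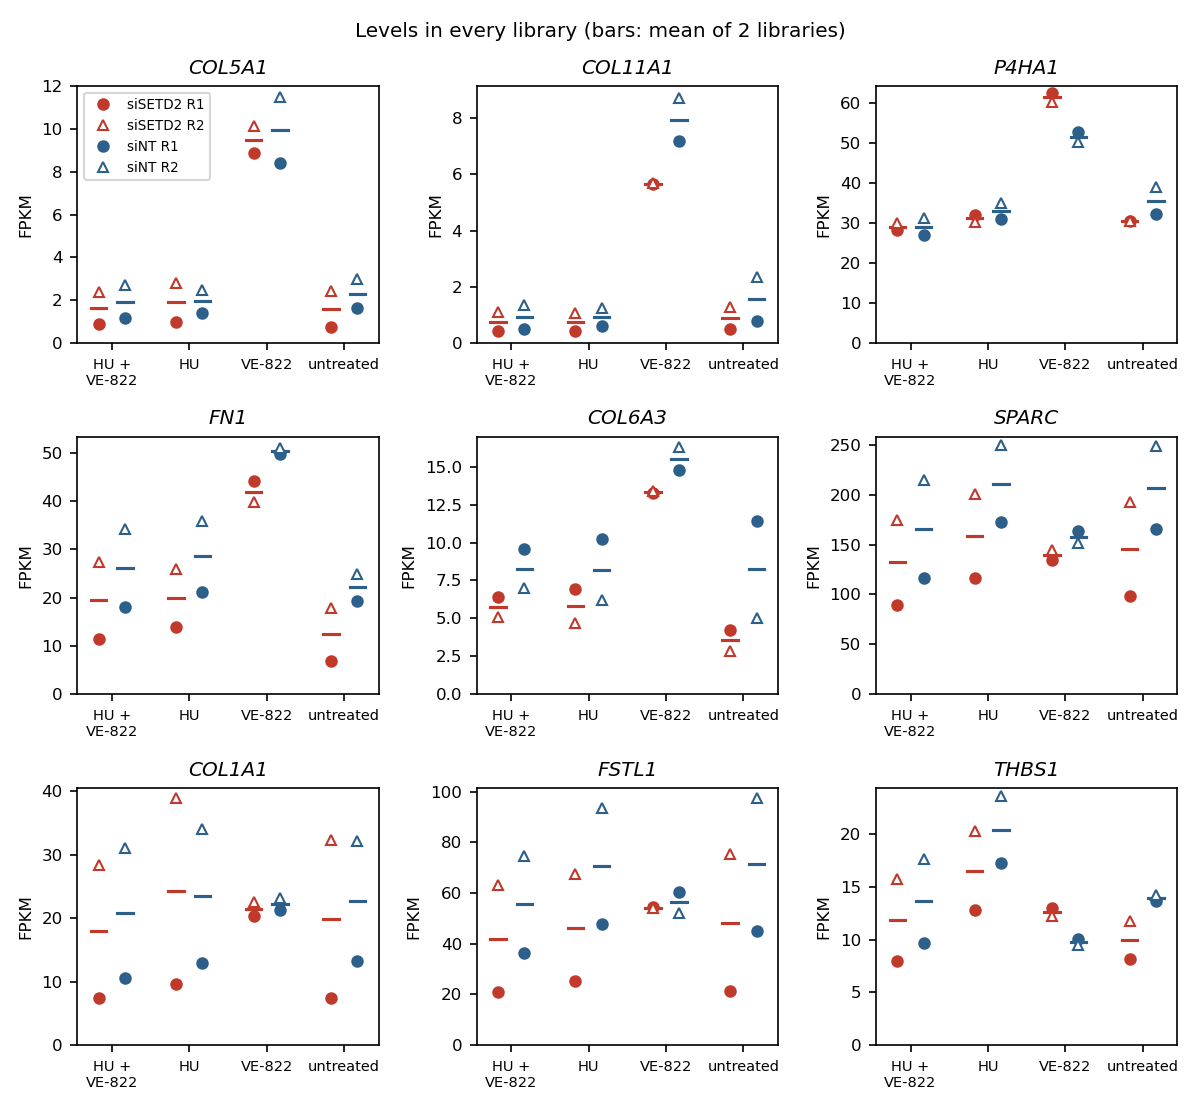
FPKM of 9 matrix genes in every library, by treatment; red is siSETD2 and blue siNT, filled circles are R1, open triangles R2, and short bars the mean of 2 libraries. COL5A1, COL11A1, P4HA1 and FN1 are highest in all 4 VE-822-alone libraries, and COL1A1 and FSTL1 differ mainly between R2 and R1.

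In the presence of HU, VE-822 was not followed by a rise of the set. In HU with VE-822 against HU alone, 36 of 38 matrix genes were lower, with a median log2 fold change of -0.19 against 0.01 for all genes tested. The median was -0.24 between R1 libraries and -0.14 between R2 libraries. limma called 0 of 38, with 4 at an unadjusted p under 0.05, and 0 on whole fragments with voom or with the block. Of all genes tested 0.00764% were called, and 1.31% with the block, 0.703% risen and 0.611% fallen. The lowest value was that of THBS1, thrombospondin-1, an anti-angiogenic activator of latent TGF-beta, at -0.53 (SE 0.236, adjusted p = 0.585, 0.0556 with the block). COL5A1 had 0.867 and 2.37 FPKM in siSETD2 and 1.16 and 2.69 FPKM in siNT cells given both drugs, against 0.965 and 2.83 FPKM in siSETD2 and 1.41 and 2.48 FPKM in siNT cells with HU alone. P4HA1 had 28.1 and 29.97 FPKM in siSETD2 and 26.9 and 31.2 FPKM in siNT cells given both drugs, against 31.9 and 30.3 FPKM in siSETD2 and 31.0 and 34.9 FPKM in siNT cells with HU alone. Both genes overlapped between these sets. Leaving out 1 library moved the median between -0.33 (without siNT R2 given both drugs) and -0.05 (without siNT R1 given both drugs).

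The comparisons of VE-822 without and with HU share no library, so their difference was tested, a contrast chosen after the values were seen. All 38 genes had a larger response without HU, with a median difference of 0.72 on the log2 scale against -0.05 for all genes tested. limma called 10 risen and 0 fallen, where 9.91% of all genes tested were called and 4.88% were called risen. With the block it called 27 risen, where 33.1% were called and 15.2% risen. The 10 were COL5A1, COL11A1, COL6A1, COL6A3, LAMB1, LAMC1, FBN1, LUM, P4HA1 and P4HA2. COL11A1, which passed the filter on low values through the VE-822-alone libraries only, differed by 1.86, given as a description, and its call is no support. COL5A1 differed by 2.01 (SE 0.436, adjusted p = 0.0186) and P4HA1 by 0.89 (SE 0.125, adjusted p = 0.00289). The calls of FBN1, LAMB1 and P4HA2 were each lost without any 1 of 10 libraries, that of COL6A3 without any 1 of 9 and that of COL5A1 without siNT R2 in HU. LAMA5 and FN1, at 2.02 and 1.60, were called with the block alone (adjusted p = 1.32e-05 and 0.000121). The number called was 6 without any 1 of 6 libraries (siNT R2 in HU, all 4 with VE-822 alone, and siSETD2 R1 given both drugs) and 21 without untreated siSETD2 R2.

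**Figure D4:**
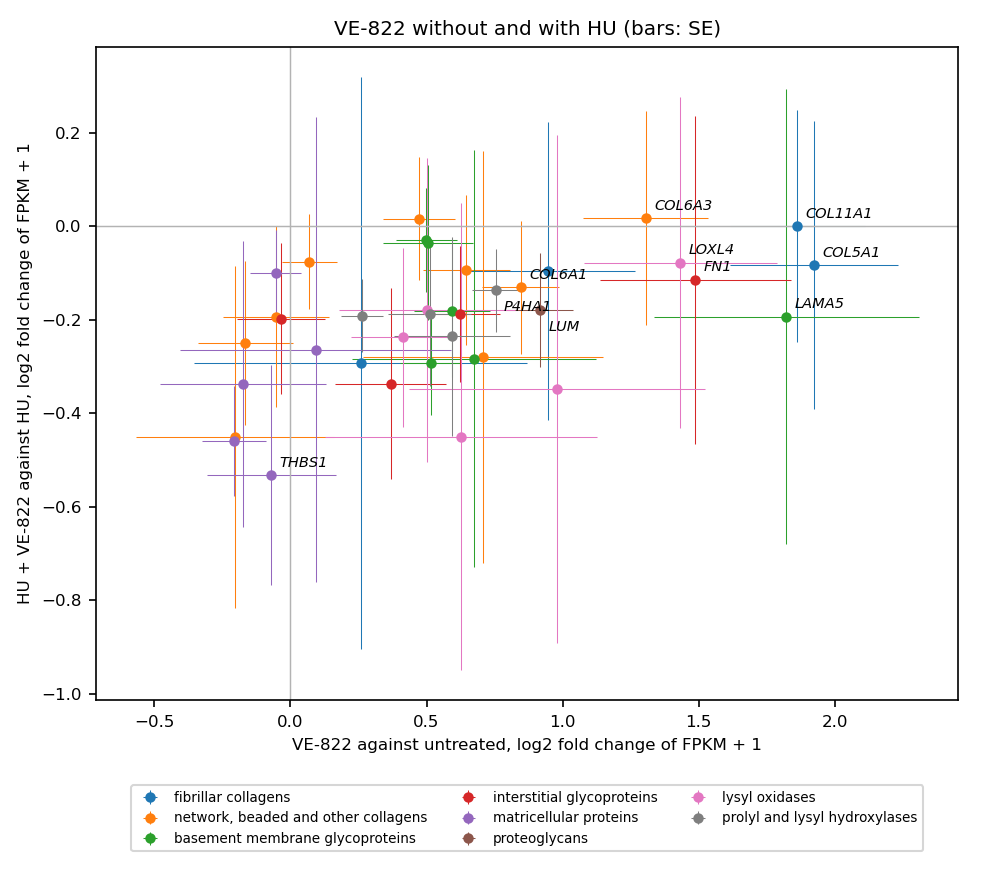
log2 fold change of FPKM + 1 for VE-822 against untreated (horizontal) and for HU with VE-822 against HU (vertical) for 38 matrix genes, coloured by role, with bars of 1 SE. COL5A1, COL11A1 and LAMA5 lie far to the right at 1.92, 1.86 and 1.82, and 36 of 38 genes lie below 0 on the vertical axis.

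HU alone changed few matrix genes. Of 38, 27 were higher with HU than untreated, with a median log2 fold change of 0.08 against 0.01 for all genes tested. limma called 0 of 38, with 2 at an unadjusted p under 0.05 and 0 with voom, where 0.107% of all genes tested were called and 0.0382% were called risen. With the block it called 1, THBS1 (chr15:39581079-39599466, plus strand), where 1.6% were called. THBS1 had 12.8 and 20.3 FPKM in siSETD2 cells with HU and 17.2 and 23.6 FPKM in siNT cells with HU, against 8.17 and 11.8 FPKM in untreated siSETD2 cells and 13.7 and 14.2 FPKM in untreated siNT cells. Within each siRNA and replicate number the HU value was the higher, but the sets overlapped. THBS1 differed by 0.58 (SE 0.236, adjusted p = 0.577, 0.0367 with the block), and it was called in 6 of 16 fits that left out 1 library. FN1 and TNC, at 0.51 and 0.40, did not pass in either fit (adjusted p = 0.073 and 0.111 with the block). Among other matrix genes, the protease inhibitor TIMP3 (0.59) and the laminin chain LAMA1 (0.43) rose with the block.

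The effect of SETD2 knockdown was read in each treatment and as an average. Averaged over the 4 treatments, 26 of 38 matrix genes were lower with siSETD2, with a median log2 fold change of -0.08 against -0.01 for all genes tested. After rescaling to TPM the medians were 0.0037 and 0.069, so the sign of the set's median depends on the scaling, though it stayed below that of all genes. limma called 0 of 38, with 5 at an unadjusted p under 0.05 and 0 with voom, where 0.13% of all genes tested were called, 0.0306% risen and 0.0993% fallen. With the block it called 1 risen and 9 fallen, where 3.88% were called, 1.66% risen and 2.22% fallen. The fallen genes were FN1, COL6A3, FSTL1, COL5A2, FBN2, SPARC, COL11A1, PLOD2 and THBS2, and the risen gene was COL4A2. COL11A1 passed the filter on low values through the VE-822-alone libraries only, averaging 0.972 FPKM in the others. A block over all 8 groups called 0 of the 38, and the block without the 4 VE-822-alone libraries called only COL6A3 (adjusted p = 0.0433). By role, all 4 fibrillar collagens (median -0.24), 5 of 5 matricellular genes (-0.27) and 3 of 4 interstitial glycoproteins (-0.25) were lower, whereas 3 of 6 basement membrane genes (0.02) and 2 of 5 lysyl oxidases (0.04) were. With 1 library left out, the block called 4 (without siNT R1 or siSETD2 R1 in HU, siSETD2 R2 with VE-822 or siSETD2 R1 given both drugs) to 14 (without untreated siSETD2 R2) of the 38, and at most 6 in 12 of the 16 cases.

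FN1 had a lowest value of 6.91, a median of 21.9 and a highest value of 44.1 FPKM in siSETD2 libraries and a lowest value of 18.0, a median of 29.6 and a highest value of 51.1 FPKM in siNT libraries. In every treatment and replicate number the siSETD2 library was the lower, while the sets of 8 overlapped. FN1 differed by -0.54 (SE 0.248, adjusted p = 0.508; SE 0.0892, adjusted p = 0.0124 with the block). COL6A3 had a lowest value of 2.87, a median of 5.76 and a highest value of 13.4 FPKM in siSETD2 libraries and a lowest value of 5.05, a median of 9.88 and a highest value of 16.3 FPKM in siNT libraries. It too was lower with siSETD2 in all 8 pairs of libraries, with a fold change of -0.51 (SE 0.162, adjusted p = 0.28; SE 0.0747, adjusted p = 0.00751 with the block). SPARC had a lowest value of 89.2, a median of 139 and a highest value of 201 FPKM in siSETD2 libraries and a lowest value of 117, a median of 169 and a highest value of 249.8 FPKM in siNT libraries. Its fold change was -0.38 (SE 0.216, adjusted p = 0.626; SE 0.0649, adjusted p = 0.014 with the block), and that of COL5A2 was -0.41 (SE 0.225, adjusted p = 0.597; SE 0.0614, adjusted p = 0.00763 with the block). FN1, COL6A3, SPARC and COL5A2 kept the call with the block when any 1 of the 16 libraries was left out, but lost it with the block over 8 groups.

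COL5A2 lay between 1.98 and 8.64 FPKM in siSETD2 libraries and between 3.21 and 11.9 FPKM in siNT libraries. FSTL1 had a lowest value of 20.9, a median of 54.2 and a highest value of 75.2 FPKM in siSETD2 libraries and a lowest value of 36.5, a median of 56.3 and a highest value of 97.6 FPKM in siNT libraries. The microfibril protein FBN2 lay between 5.81 and 14.4 FPKM with siSETD2 and between 10.0 and 18.3 FPKM with siNT, COL11A1 between 0.421 and 5.68 FPKM with siSETD2 and between 0.516 and 8.73 FPKM with siNT, and the lysyl hydroxylase PLOD2 between 24.6 and 55.9 FPKM with siSETD2 and between 27.9 and 57.1 FPKM with siNT. The sets of 8 overlapped for all 5 genes. FSTL1, FBN2, COL11A1 and PLOD2 had fold changes of -0.49, -0.39, -0.28 and -0.27 (adjusted p = 0.0195, 0.0457, 0.0338 and 0.0266 with the block). These calls were lost without any 1 of 8, 14, 11 and 10 libraries. THBS2, an anti-angiogenic thrombospondin close to 1 FPKM, had a lowest value of 0.652, a median of 0.870 and a highest value of 1.005 FPKM in siSETD2 libraries and a lowest value of 1.02, a median of 1.25 and a highest value of 1.59 FPKM in siNT libraries. It was the only member with all 8 siSETD2 libraries below all 8 siNT libraries, where 0.168% of all genes tested were. Its fold change was -0.27 (SE 0.0654, adjusted p = 0.15; SE 0.0614, adjusted p = 0.0414 with the block), a call lost without any 1 of 14 libraries.

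COL4A2 and COL4A1, the chains of the main collagen IV trimer, lie head to head on chromosome 13. COL4A2 had a lowest value of 22.1, a median of 33.2 and a highest value of 43.0 FPKM in siSETD2 libraries and a lowest value of 18.3, a median of 26.6 and a highest value of 31.4 FPKM in siNT libraries, a fold change of 0.35 (SE 0.137, adjusted p = 0.409; SE 0.0732, adjusted p = 0.0284 with the block). The sets overlapped, and the COL4A2 call was lost without any 1 of 11 libraries. Untreated cells did not share the rise, with 22.1 and 33.8 FPKM for siSETD2 and 27.9 and 29.7 FPKM for siNT. With VE-822 alone the values were 32.5 and 36.6 FPKM for siSETD2 and 19.5 and 23.0 FPKM for siNT. In HU and in both drugs siSETD2 was the higher in R1 and in R2. COL4A1 had a fold change of 0.01 (SE 0.124, adjusted p = 0.986), an average of opposite directions. It had 10.3 and 15.5 FPKM in untreated siSETD2 cells and 16.5 and 18.1 FPKM in untreated siNT cells. With VE-822 alone it had 15.2 and 15.5 FPKM in siSETD2 cells and 10.5 and 11.8 FPKM in siNT cells. Neither was called within its treatment. The difference between the fold changes of COL4A2 and COL4A1 was not tested. The 126 bases between their RefSeq starts (chr13:110307158-110307283, GRCh38.p14, plus strand) are shown because both genes are transcribed away from this stretch, with 1 CCAAT box and 1 GC box in capitals.
COL4A1 and COL4A2, between the starts: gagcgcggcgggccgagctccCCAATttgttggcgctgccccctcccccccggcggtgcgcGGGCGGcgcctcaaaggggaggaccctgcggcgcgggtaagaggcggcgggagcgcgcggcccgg

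The difference was widest without drug. In untreated cells 33 of 38 matrix genes were lower with siSETD2, with a median log2 fold change of -0.35 against -0.01 for all genes tested, of which 6722 of 13088 were lower. The median was -0.46 between R1 libraries (35 lower) and -0.20 between R2 libraries (29 lower). limma called 0 of 38, with 6 at an unadjusted p under 0.05 and 0 with voom or the block, where 0% of all genes tested were called and 0.00764% with the block. The largest fold changes were those of COL6A3 at -0.95 and FN1 at -0.91 (adjusted p = 0.999 and 0.999). FN1 had 6.91 and 17.9 FPKM in untreated siSETD2 cells, against 19.3 and 24.9 FPKM in untreated siNT cells, and COL6A3 had 4.21 and 2.87 FPKM in siSETD2 and 11.4 and 5.05 FPKM in siNT cells. SETD2 itself stood at 2.01 FPKM in siSETD2 R1 and 4.17 FPKM in siSETD2 R2, and its part in the wider R1 difference was not tested. The median depended on single libraries. It was -0.08 without siSETD2 R1, -0.14 without siNT R2 and -0.70 without siSETD2 R2.

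With drugs the set differed less between siRNAs. The median was -0.07 in HU with 23 lower, 0.05 in VE-822 with 22 higher and -0.05 in HU with VE-822 with 23 lower. Medians of all genes tested were -0.03, -0.01 and 0.01. In HU 60.5% of the matrix genes were lower, near the 56.7% of all genes tested. Rescaled to TPM, the medians of the matrix genes in HU and in both drugs were 0.01 and 0.07, where those of all genes tested were 0.05 and 0.14. limma called 0 of 38 in each, with and without the block and with voom, and 0, 3 and 0 had an unadjusted p under 0.05. Of all genes tested, 0% were called under any of the 3 treatments (0% with HU, 0.0458% with VE-822 and 0% with both drugs in the fit with the block). The difference between the siSETD2 effect in HU and that in untreated cells was above 0 for all 38 genes (median 0.26), and between VE-822 and untreated for 35 (median 0.39), but limma called 0 of 38 in either, with 1 and 5 at an unadjusted p under 0.05. Both share the untreated libraries, and without untreated siSETD2 R1 the medians were -0.03 and -0.00109. Between HU with VE-822 and HU the median difference was -0.02, with 0 called. In these 3 tests of a difference 0% of all genes tested were called, with and without the block.

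The other lists of the pathway were also read with the block and averaged over treatments. Of all genes tested, 1.66% were called risen and 2.22% fallen in this fit. Of 24 genes for collagen folding, modification and secretion 0 rose and 2 fell, the procollagen C-proteinase enhancer PCOLCE (-0.25, adjusted p = 0.028) and the prolyl 3-hydroxylase P3H2 (-0.23, adjusted p = 0.0195). Of 25 TGF-beta genes 0 rose and 3 fell, TGFBR2 (-0.38, adjusted p = 0.0284), LTBP1 (-0.37, adjusted p = 0.00362) and TGFBR3 (-0.29, adjusted p = 0.0343). Of 20 receptors 0 rose and 1 fell, the integrin chain ITGB1 (-0.24, adjusted p = 0.0457). Of 29 other matrix genes 1 rose and 3 fell, with TIMP2 (-0.31) and EFEMP1 (-0.24) among the fallen. Without the block none of these was called.

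**Figure D5:**
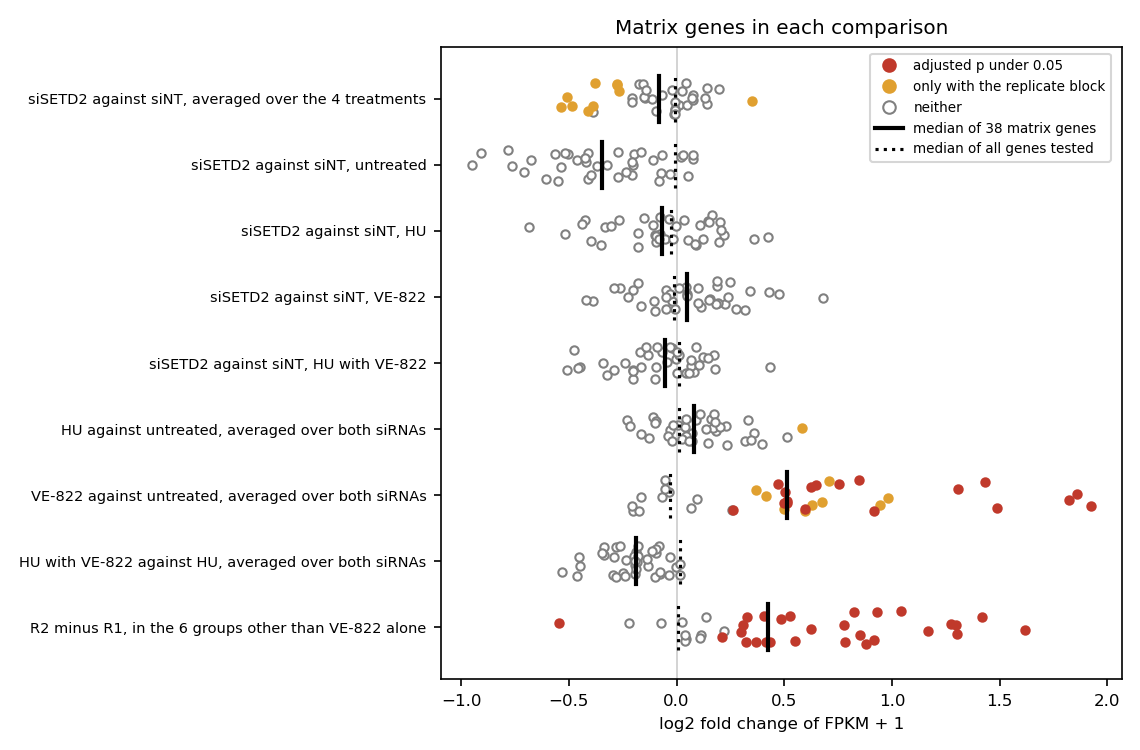
log2 fold change of FPKM + 1 of 38 matrix genes (points) in each comparison; red points pass an adjusted p of 0.05 in limma, orange points only with the replicate block, open points neither, and solid and dotted bars are the medians of the matrix genes and of all genes tested. The matrix median is farthest right for VE-822 against untreated, at 0.51, and farthest left for siSETD2 against siNT in untreated cells, at -0.35.

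Within groups matrix genes differed between replicate numbers. In the 6 groups without VE-822 as the only drug, 35 of 38 were higher in R2 than in R1 libraries, with a median of 0.43 on the log2 scale against 0.01 for all genes tested. limma called 27 higher and 1 lower in R2, where 41.2% of all genes tested were called, 22% higher and 19.2% lower. Rescaling to TPM moved the median of all genes by -0.16 on the log2 scale and left that of the matrix genes at 0.28. COL1A1 had a lowest value of 28.4, a median of 32.2 and a highest value of 39.0 FPKM in R2 libraries and a lowest value of 7.45, a median of 10.1 and a highest value of 13.2 FPKM in R1 libraries. The sets did not overlap, and COL1A1 had the largest difference, 1.62 (SE 0.102, adjusted p = 1.70e-06). LOXL2 lay between 29.97 and 44.9 FPKM in R2 and between 8.57 and 21.7 FPKM in R1 libraries, LOXL1 between 8.27 and 14.9 FPKM in R2 and between 2.62 and 4.64 FPKM in R1, and FSTL1 between 63.1 and 97.6 FPKM in R2 and between 20.9 and 47.9 FPKM in R1. They were higher in R2 by 1.42, 1.30 and 1.30 (adjusted p = 7.01e-06, 1.04e-05 and 9.34e-06). LAMA5, the network collagen COL8A1 and HSPG2 followed at 1.28, 1.17 and 1.04 (adjusted p = 4.14e-06, 9.08e-07 and 0.00124). COL6A3 was the gene lower in R2, at -0.54 (adjusted p = 0.000684), while its partner chains COL6A1 and COL6A2 were at 0.22 and 0.31 (adjusted p = 0.0751 and 0.017). For 16 of 38 all 6 R2 libraries lay above all 6 R1 libraries, where 7.88% of all genes tested did.

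All 5 lysyl oxidases tested and all 4 fibrillar collagens tested were called higher in R2. Of all genes tested 22% were called higher and 19.2% lower, and the other lists are read against these shares. Of these, 11 of 24 collagen folding, modification and secretion genes were higher and 2 lower in R2, with P3H2 at 1.51 and ADAMTS2 at 0.88. Of 25 TGF-beta genes 12 were higher and 6 lower, with the ligand TGFB2 at 1.46. Of 20 receptors 15 were higher and 1 lower, with dystroglycan (DAG1) at 1.23, and of 29 other matrix genes 18 were higher and 6 lower, with osteopontin (SPP1) at -2.45 and EFEMP1 at 1.85. Mitochondrial transcripts took 12.4% to 18.5% of fragments in R2 and 10.9% to 15.6% in R1 libraries. The SETD2 transcript in siSETD2 cells was 4.17 FPKM in R2 and 2.01 FPKM in R1 without drug. What part these had in the difference was not tested. In VE-822 alone the R2 and R1 values were closer. COL1A1 had 22.6 FPKM in R2 and 20.3 FPKM in R1 in siSETD2 cells, and 23.3 FPKM in R2 and 21.3 FPKM in R1 in siNT cells.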

How the data were processed

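RNA-seq of 16 U2OS libraries was used as deposited by the authors, as FPKM per gene; per the submitters' processing notes the tools were DESeq2 1.26.0, featureCounts 1.5.0-p3, FastQC and STAR 2.6.1d with the hg38 build, in roles not stated. All 58735 gene IDs matched GENCODE 29. FPKM times exon length gave whole fragments (within 0.01) for 100% of values, from which depth was read. FPKM hold a per-library scaling, so a shift common to all genes cannot be seen.

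limma 3.58.1 (R 4.3.3, trend) was fitted to log2(FPKM + 1) of the 13088 genes averaging at least 1 FPKM, with 1 mean per group, 8 residual degrees of freedom and Benjamini-Hochberg adjustment over all genes tested at 0.05. Same-numbered libraries deviated together in the 15 pairs among 6 groups, all but VE-822 alone (correlation of R2 and R1 deviations 0.363 to 0.746) but not in the 12 pairs that held 1 VE-822-alone group (-0.0517 to 0.295). The pair of both VE-822-alone groups correlated at 0.395. The replicate block was set in those 6 groups and does not model the VE-822-alone pair. The block was made of replicate numbers and no label calls these a batch. The code was tested on simulated data. Levels by library were given for called genes (at most 10 per comparison), the 10 highest genes and FN1, COL1A1, COL1A2, SPARC, THBS1 and LOX; other lists by counts and their 3 largest called genes. Alternatives were a pseudocount of 0.1, no low-value filter, TPM rescaling, voom on whole fragments, 3 kinds of block and leaving out each library. Promoter sequences came from RefSeq (GRCh38.p14). Members and lists were chosen with earlier results of these data known. A gene of the other matrix list is not reported here.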

Additional observations from a re-analysis of the deposited data

Results flagged for a closer look

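The response to VE-822 without HU differed from that in HU, by limma's test of the difference (adjusted p under 0.05, a comparison chosen after the values were seen), for 10 of the 38 matrix genes tested. All 10 were called risen, where 9.91% of all genes tested were called and 4.88% were called risen. The difference on the log2 scale was 2.01 for COL5A1, 1.86 for COL11A1, 1.29 for COL6A3, 1.10 for LUM and 0.98 for COL6A1. It was 0.89 for P4HA1, 0.81 for FBN1, 0.81 for LAMC1, 0.78 for LAMB1 and 0.46 for P4HA2. COL11A1 passed the filter on low values through the VE-822-alone libraries only, so its call is no support. The calls of FBN1, LAMB1 and P4HA2 were each lost without any 1 of 10 libraries, that of COL6A3 without any 1 of 9 and that of COL5A1 without siNT R2 in HU. All 10 rest on the 4 VE-822-alone libraries, which stood apart from the other 12, and the drug and those libraries cannot be told apart.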

How the results depend on the processing

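The 2 libraries a group, and few fragments for genes near 1 FPKM, limit the precision. No called matrix gene changed sign under the alternatives run for it. The blocks in 6 and over 8 groups leave fold changes as they are, so they could not change a sign. For genes called only with the block in 6 groups, the alternatives were a pseudocount of 0.1, no low-value filter, TPM and leaving out each library. The replicate block in 6 groups raised the calls among 38 matrix genes to 10 for siSETD2 averaged over treatments, to 1 for HU and to 27 for the difference between VE-822 responses, and the block over 8 groups gave 23 for that difference. The block without the 4 VE-822-alone libraries gave 1 call and a median of -0.13 for siSETD2 averaged. With no low-value filter the block gave 4 calls for siSETD2 averaged and 0 for HU, and with TPM 4 for siSETD2 averaged. In siSETD2 against siNT the median moved to -0.020 with no filter and 0.0037 with TPM averaged over treatments. In HU it was -0.018 with no filter, 0.011 with TPM and -0.014 with voom, in VE-822 0.012, 0.11 and 0.070 by the same settings, and in both drugs 0.069 with TPM. The R2 minus R1 median was 0.28 with TPM. The cause was not tested.

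Leaving out 1 library moved the siSETD2 median between -0.17 and 0.000149 averaged, -0.70 and -0.078 untreated, -0.21 and 0.19 in HU, 0.026 and 0.11 in VE-822, and -0.32 and 0.17 in both drugs. It moved that of HU against untreated between -0.040 and 0.26 and that of both drugs against HU between -0.33 and -0.054. The median difference of the siSETD2 effect lay between -0.033 and 0.57 for HU minus untreated, -0.00109 and 0.77 for VE-822 minus untreated and -0.30 and 0.29 for both drugs minus HU. Calls ranged from 0 to 2 for siSETD2 averaged and untreated, 11 to 23 for VE-822 and 6 to 21 for the difference between VE-822 responses. With the block they ranged from 4 to 14 for siSETD2 averaged, 0 to 15 untreated, 0 to 5 for HU, 0 to 6 for both drugs against HU, and 0 to 3 and 0 to 5 for the siSETD2 effect in HU and in VE-822 minus untreated.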
